A study of Sus scrofa with 8 samples.

Results

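The genes described here encode proteases that act outside the cell or at its surface, together with their inhibitors, in porcine pancreatic ductal organoids (PPDO). They were chosen by symbol: the matrix metalloproteinases (MMP), the tissue inhibitors of metalloproteinases (TIMP), the ADAM and ADAMTS proteases, the serpins of clades A to G and I, the plasminogen activation genes PLAU, PLAUR and PLAT, and the matriptase group ST14, SPINT1 and SPINT2. The rule found 96 genes with 95 symbols among the 30282 genes of the table, since 2 gene identifiers carry the symbol MMP25. Of the 96 genes, 19 were MMP, 4 TIMP, 19 ADAM, 19 ADAMTS and 29 serpin genes. Counts were high enough to test 63 of them, and 11 never exceeded 3 counts in any library.

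MMP are zinc proteases that cut collagens, laminins and other matrix proteins, mostly after removal of a propeptide, and TIMP bind and block their active site. ADAM proteases sit in the plasma membrane and release growth factors and receptors from the cell surface, whereas the secreted ADAMTS cut proteoglycans and procollagens. Urokinase (PLAU), held at the cell by its receptor PLAUR, and tissue plasminogen activator (PLAT) turn plasminogen into plasmin, and the serpin SERPINB2 inhibits both activators. Matriptase (ST14) is a transmembrane serine protease of epithelia, and SPINT1 and SPINT2 are its membrane-bound Kunitz inhibitors. In the pancreas these systems are known mainly from ductal cancer and pancreatitis, where matrix is broken down and laid down anew.

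The data came from 8 bulk RNA libraries of 4 PPDO lines, each grown for a week in complete medium (the control samples) and in differentiation medium (the treated samples), so that n = 4 libraries per medium. The pancreas was embryonic for line Em, early postnatal for EPN1 and EPN2 and late postnatal for LPN. Each line was 1 culture per medium, so that the developmental stage and the line cannot be told apart. Control samples received WNT3a, R-spondin1, noggin, FGF10, EGF, gastrin and prostaglandin E2, all of which were absent from differentiation medium. For maintenance of PPDO the paper used an L-WRN conditioned medium supplement in place of recombinant WNT3a, R-spondin1 and noggin. Which form these libraries received is not given, so the media may also differ in conditioned medium. Both media held the basal medium with N2 and B27, the TGF-beta receptor inhibitor A83-01, the ROCK inhibitor Y-27632, nicotinamide and N-acetylcysteine, and all cultures were embedded in Cultrex, a basement membrane extract. The pigs were of German landrace background, wild-type or carrying INS-eGFP, a reporter driven by the porcine insulin promoter, and which line carried it is not given in the sources used here. The treatment field of the labels names an endocrine induction medium for all 8 samples, so media were assigned by the sample titles.

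Library totals ranged from 40553593 to 47910657 estimated counts. Values are CPM, counts scaled to sequencing depth with TMM factors, and 3 counts, the limit that a count of 0 allows, corresponded to 0.0618 to 0.0731 CPM. CPM are not divided by transcript length, so levels are compared between libraries and not between genes. All 10 duct markers found in the table were tested and none was called between media by edgeR without the line, with 1 at an unadjusted p under 0.05 and 1 called by DESeq2. CDH1 rose with line as the blocking term, and the summed level was 6991 to 11529 CPM in complete and 4103 to 15914 CPM in differentiation medium. Of other cell types, the 7 endothelial markers summed to 22.0 to 35.0 CPM in complete and 16.3 to 44.8 CPM in differentiation medium. KDR, PECAM1 and, at a low level, VWF were detected in every library, and CDH5 was at no more than 3 counts. The 11 acinar markers found summed to 124 to 163 CPM and 148 to 319 CPM, nearly all of it from CTRC, while CPB1 and PNLIP were at 0 counts. The 9 endocrine markers summed to 0.974 to 3.23 CPM and 0.876 to 23.8 CPM. Of these 3 lists 8 genes were tested and 0 called by edgeR, with CTRC and TEK higher at an unadjusted p under 0.05. DESeq2 called CTRC without the line, and CTRC and TEK with it. In bulk RNA, fewer cells of a type and less RNA per cell cannot be told apart. Genes are termed called, or said to pass, by edgeR without the line unless another fit is named. Below, 4 values in a row stand for Em, LPN, EPN1 and EPN2, in that order.

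Between the media, 8 of the 63 tested protease and inhibitor genes passed an adjusted p of 0.05 in edgeR, which is 12.7% beside 6.97% of the 14475 genes tested. MMP2, ADAM28 and ST14 were higher in differentiation medium, that is 3 genes beside 2.87% of all genes tested. MMP9, MMP19, 1 of the 2 genes named MMP25, ADAM8 and SERPINB6 were lower, that is 5 genes beside 4.10%. The median log2 fold change of the 63 was 0.09, against 0.01 over all genes tested. At an unadjusted p under 0.05 there were 22 genes, or 34.9% beside 27.3%. With line as the blocking term, 20 of the 63 passed, or 31.7% beside 19.9% of all genes, and 7 of the 8 genes were shared. These were 10 higher, beside 9.48% of all genes, and 10 lower, beside 10.4%. DESeq2, which also gave an adjusted p to genes of lower counts, called 20 of 75 without the line, beside 17.9% of all genes, and 39 of 72 with it, beside 34.9%. The libraries of the media did not overlap for 3 genes in the higher and 8 in the lower direction, 17.5% of the 63 beside 18.8% of all genes (8.82% higher and 9.98% lower). Among the 63, the count of 8 fell to 0 when differentiation EPN1 was left out, to 2 without complete LPN, complete EPN1 or differentiation LPN, to 3 without differentiation Em and to 4 without complete Em, and was 8 without either library of EPN2. These counts include genes outside the 8. TIMP1 entered without differentiation Em. Without complete EPN2, ADAM10 entered and ADAM28 was lost. Without differentiation EPN2, ADAMTS7 and ADAMTS9 entered, and ST14 and SERPINB6 were lost. With the block, no gene of the 63 passed without line LPN or without line EPN1, where 22 and 8 of all genes did.

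**Figure D1:**
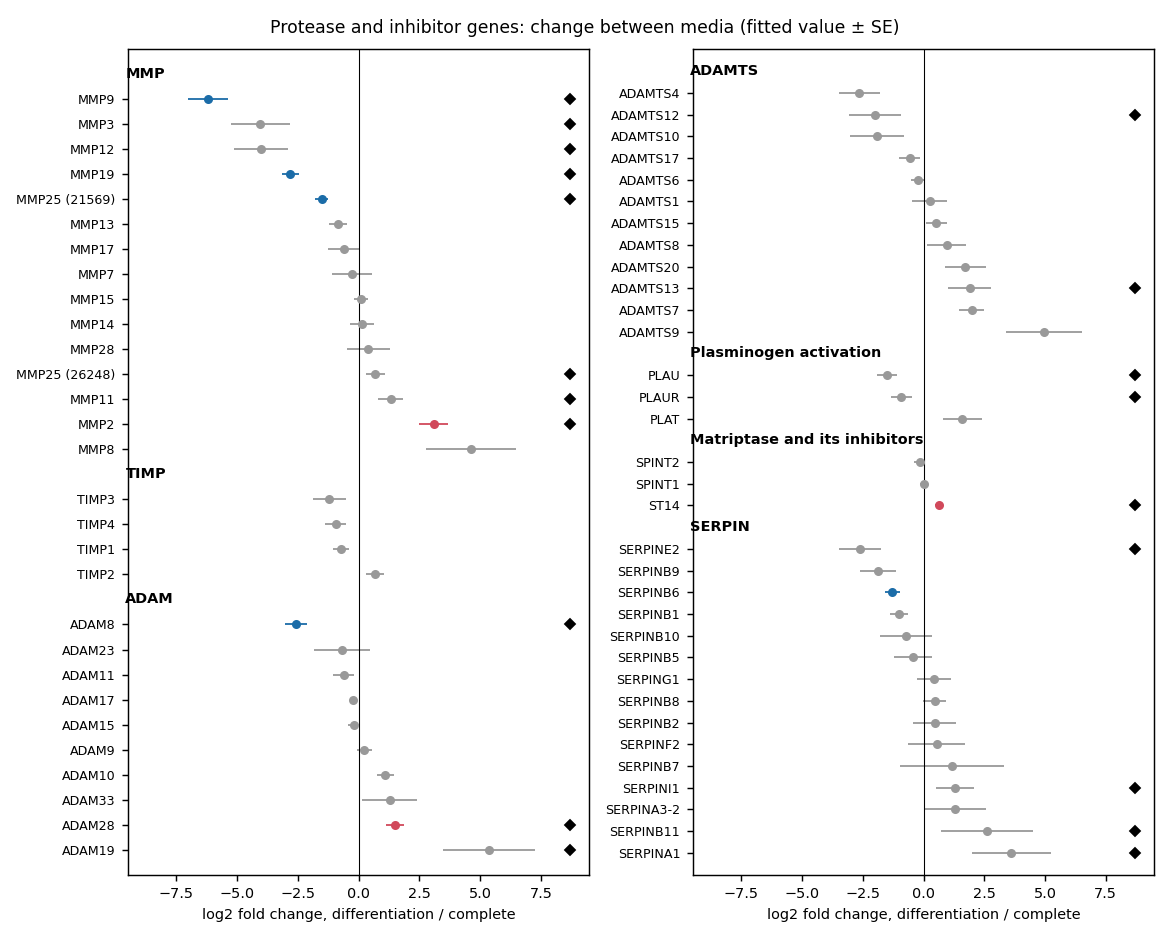
Fitted log2 fold change of differentiation over complete medium for 62 of the 63 tested genes, with bars of ± 1 SE (4 libraries per medium), grouped by family. Blue marks the 5 genes lower and red the 3 genes higher at an adjusted p under 0.05, grey the rest, and diamonds the 20 genes past the threshold with line as the blocking term. The MMP genes spread from -6.20 (MMP9) to 4.62 (MMP8), and SPINT1 and SPINT2 lie near 0.

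Among the matrix metalloproteinases, 15 of 19 were tested, 1 was higher and 3 were lower, and with line as the blocking term 3 were higher and 5 lower. These calls were 26.7% of the 15 beside 6.97% of all genes, and 53.3% beside 19.9% with the block. MMP took up 0.283% to 0.374% of all counts in complete medium and 0.147% to 0.268% in differentiation medium, so that the libraries of the media did not overlap in this sum. The genes named MMP3, MMP7 and MMP13 gave most of these counts, and MMP3 alone gave most of them in complete LPN (76613 counts). Without MMP3 the libraries of the media overlapped in this sum. MMP7 was higher in differentiation medium in 2 of 4 lines, so the sum does not describe each gene. MMP9, the gelatinase B that cuts denatured collagen and collagen IV, fell to the limit of detection in differentiation medium. It was at 0.909, 2.34, 3.41 and 8.50 CPM in complete medium and 0.0618, 0.0626, 0.0226 and 0.0467 CPM in differentiation medium. Every complete library lay above every differentiation library. MMP9 had 1 to 3 counts in each differentiation library, and 376 counts in complete EPN2. Summed over libraries and corrected for depth, complete exceeded differentiation medium 77.3 times, with a 95% counting interval of 40.5 to 170 that covers counting error only. The test gave a fitted log2 fold change -6.20 ± 0.83 (SE), edgeR adjusted p = 0.0121, which passed in 15 of 18 alternatives and was lost without differentiation EPN1 (adjusted p = 0.0527).

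MMP19, a matrix metalloproteinase of basement membrane and tenascin substrates, fell in all 4 lines. Its level was 13.4, 17.6, 14.7 and 8.32 CPM in complete medium and 2.89, 1.90, 1.63 and 1.26 CPM in differentiation medium, and the libraries did not overlap. Means were 13.5 ± 3.89 CPM (SD, n = 4) in complete and 1.92 ± 0.696 CPM in differentiation medium (fitted log2 fold change -2.81 ± 0.35 (SE), edgeR adjusted p = 0.0116). That call was lost without differentiation EPN1 (adjusted p = 0.0527) among the fits that leave out 1 library.

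2 gene identifiers share the symbol MMP25, the leukolysin that is anchored to the membrane by a lipid, and their values went in opposite directions. The gene ENSSSCG00000021569 was at 5.30, 9.87, 10.8 and 9.92 CPM in complete medium and 3.09, 3.17, 2.83 and 3.43 CPM in differentiation medium. Its differentiation libraries lay close together and all below those in complete medium (fitted log2 fold change -1.52 ± 0.27 (SE), edgeR adjusted p = 0.0227). It was not called without complete LPN or EPN1 or differentiation Em, LPN or EPN1 (adjusted p = 0.0515 to 0.0816). The other gene, ENSSSCG00000026248, was at 41.2, 59.3, 48.4 and 88.3 CPM in complete medium and 52.8, 113, 62.4 and 154 CPM in differentiation medium, higher in each line but with overlapping libraries (fitted log2 fold change 0.69 ± 0.38 (SE), edgeR adjusted p = 0.283). With line as the blocking term it passed (0.61 ± 0.14 (SE), adjusted p = 0.0358, 0.00140 to 0.536 over 18 alternatives). A separate table of gene names gives MMP25 to the first of these genes and no name to the second. Reads could be split between genes of 1 symbol, so both values are uncertain.

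Immune markers are given beside MMP9, MMP25, ADAM8 and MMP12, which leukocytes are known to express. Of 11 such markers 10 were in the table and 6 were tested, with 0 called by edgeR or DESeq2 and 2 at an unadjusted p under 0.05. Their summed level was 1180 to 1849 CPM in complete and 1049 to 1221 CPM in differentiation medium, nearly all of it from CD79A, while PTPRC, the common leukocyte antigen, was at 2.16, 0.706, 0.529 and 0 CPM in complete medium and 0.0412, 0.376, 0.430 and 0 CPM in differentiation medium. CD163, CD3E and TYROBP were at or under 3 counts in all 8 libraries. CD68, a lysosomal protein abundant in macrophages, was at 4.24, 49.7, 41.4 and 24.7 CPM in complete medium and 3.24, 23.9, 5.29 and 26.9 CPM in differentiation medium. Its lines had the same order as those of ADAM8 in complete medium only. In differentiation medium CD68 was highest in EPN2, where ADAM8 was lowest (4.48 CPM). PTPRC was highest in complete Em, the complete library with the least ADAM8 (15.5 CPM). CD14, a receptor for lipopolysaccharide, was at 52.3 CPM in complete and 4.70 CPM in differentiation Em, whereas in the other lines it did not exceed 5.09 CPM in complete medium and was at 12.6 CPM in EPN1, 36.6 CPM in EPN2 and highest in LPN in differentiation medium. CD14 and AIF1 were higher in differentiation medium in 3 of 4 lines, and CD68 and PTPRC were lower in 3 of 4. The part of immune cells in the values of MMP9, MMP25, ADAM8 and MMP12 was not tested.

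MMP2, the gelatinase A that the membrane protease MMP14 activates, rose from a low level. It was at 0.801, 3.09, 2.02 and 1.06 CPM in complete medium and 21.0, 9.62, 22.4 and 5.95 CPM in differentiation medium. All differentiation libraries exceeded all complete ones, with Em and EPN1 highest (fitted log2 fold change 3.08 ± 0.60 (SE), edgeR adjusted p = 0.0294). The call was lost without complete Em, LPN or EPN1 or differentiation Em, LPN or EPN1 (adjusted p = 0.0553 to 0.0849). COL3A1, a collagen of stromal cells, was at 0.0216, 0.0487, 0.0240 and 0 CPM in complete medium and 5.03, 0.167, 6.06 and 0.0467 CPM in differentiation medium, so the same 2 differentiation libraries were highest. Of 12 stromal markers, all in the table, 5 were tested and 0 called by edgeR, and the median log2 fold change of the 5 was -1.18, with 1 of them above 0. PDGFRB was lower at an unadjusted p under 0.05 and with line as the blocking term. DESeq2 gave an adjusted p to 11 of the 12 and called 3 without the line, COL3A1 and PDGFRA higher and PDGFRB lower, and 5 of 8 with it. The summed level of the list was 304 to 572 CPM in complete and 219 to 669 CPM in differentiation medium. None of the 12 was at or under 3 counts in all libraries, and the part of stromal cells in the MMP2 result was not tested.

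MMP14 was at 55.8, 119, 73.0 and 72.2 CPM in complete medium and 23.7, 127, 76.2 and 128 CPM in differentiation medium, with overlapping libraries (fitted log2 fold change 0.15 ± 0.49 (SE), edgeR adjusted p = 0.873). MMP15, another membrane-type enzyme, was at 195, 128, 202 and 184 CPM in complete medium and 279, 136, 221 and 116 CPM in differentiation medium (fitted log2 fold change 0.09 ± 0.30 (SE), edgeR adjusted p = 0.877). Both varied more between lines than between media.

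MMP11, the stromelysin 3 that has little activity on matrix proteins, was at 21.9, 82.5, 40.0 and 46.8 CPM in complete medium and 66.7, 204, 141 and 64.5 CPM in differentiation medium. It was higher in differentiation medium in 4 of 4 lines, while LPN was highest in both media. It did not pass without the line (fitted log2 fold change 1.32 ± 0.50 (SE), edgeR adjusted p = 0.141) and passed with it (1.30 ± 0.24 (SE), adjusted p = 0.0236, 1.28e-05 to 0.293 over 18 alternatives).

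A run of MMP genes lies side by side on pig chromosome 9, at 33214590 to 33616700 in the RefSeq annotation of Sscrofa11.1, and 7 of the 96 genes fall in it: MMP7, MMP20, MMP27, MMP8, MMP3, MMP12 and MMP13. The gene named MMP3 in the table (ENSSSCG00000014985) carries the name MMP1 in a separate table of gene names, so that stromelysin 1 and interstitial collagenase could not be told apart. It was at 202, 1866, 668 and 430.3 CPM in complete medium and 104, 75.1, 9.25 and 2.99 CPM in differentiation medium. Its complete libraries all exceeded its differentiation libraries, with LPN highest in complete and Em highest in differentiation medium. The difference did not pass without the line (fitted log2 fold change -4.05 ± 1.21 (SE), edgeR adjusted p = 0.0837) and passed with it (-4.98 ± 1.26 (SE), adjusted p = 0.0472, 1.92e-05 to 0.183 over 18 alternatives).

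MMP12, the macrophage elastase, was at 1.34, 7.50, 3.53 and 0.859 CPM in complete medium and 0.186, 0.438, 0 and 0.187 CPM in differentiation medium. These libraries did not overlap either, and LPN was again highest in complete medium. The test gave a fitted log2 fold change -4.01 ± 1.11 (SE), edgeR adjusted p = 0.0695, and -3.84 ± 0.94 (SE), adjusted p = 0.0435 with line as the blocking term (0.000109 to 0.172 over 18 alternatives). MMP13, collagenase 3, was at 655, 431, 1327 and 755 CPM in complete medium and 292, 465, 609 and 375 CPM in differentiation medium, lower in 3 of 4 lines and not called (fitted log2 fold change -0.86 ± 0.37 (SE), edgeR adjusted p = 0.175). DESeq2 with the line called MMP13 lower (adjusted p = 0.0168, 0.0168 to 0.410 over 18 alternatives).

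MMP7, the matrilysin of ductal and glandular epithelium, was lower in some lines and higher in others. It was at 2513, 119, 516 and 2280.0 CPM in complete medium and 1783, 654, 1370.1 and 718 CPM in differentiation medium. Em and EPN2 were lower and LPN and EPN1 higher in differentiation medium (fitted log2 fold change -0.26 ± 0.83 (SE), edgeR adjusted p = 0.866), and the sign of the fitted value turned with line as the blocking term (0.43). MMP8, the neutrophil collagenase, had 0, 2, 0 and 27 counts in complete medium and 8, 643, 21 and 106 in differentiation medium, and it is named after its values were seen, as are MMP14 and MMP15. Most of its counts came from differentiation LPN (fitted log2 fold change 4.62 ± 1.85 (SE), edgeR adjusted p = 0.156). DESeq2 called MMP8 higher without the line (adjusted p = 0.0284) and with it (adjusted p = 2.92e-05, 2.92e-05 to 0.367 over 17 alternatives). MMP17 and MMP28 were tested and not called, and MMP16, MMP20, MMP24 and MMP27 had too few counts for the edgeR filter.

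**Figure D2:**
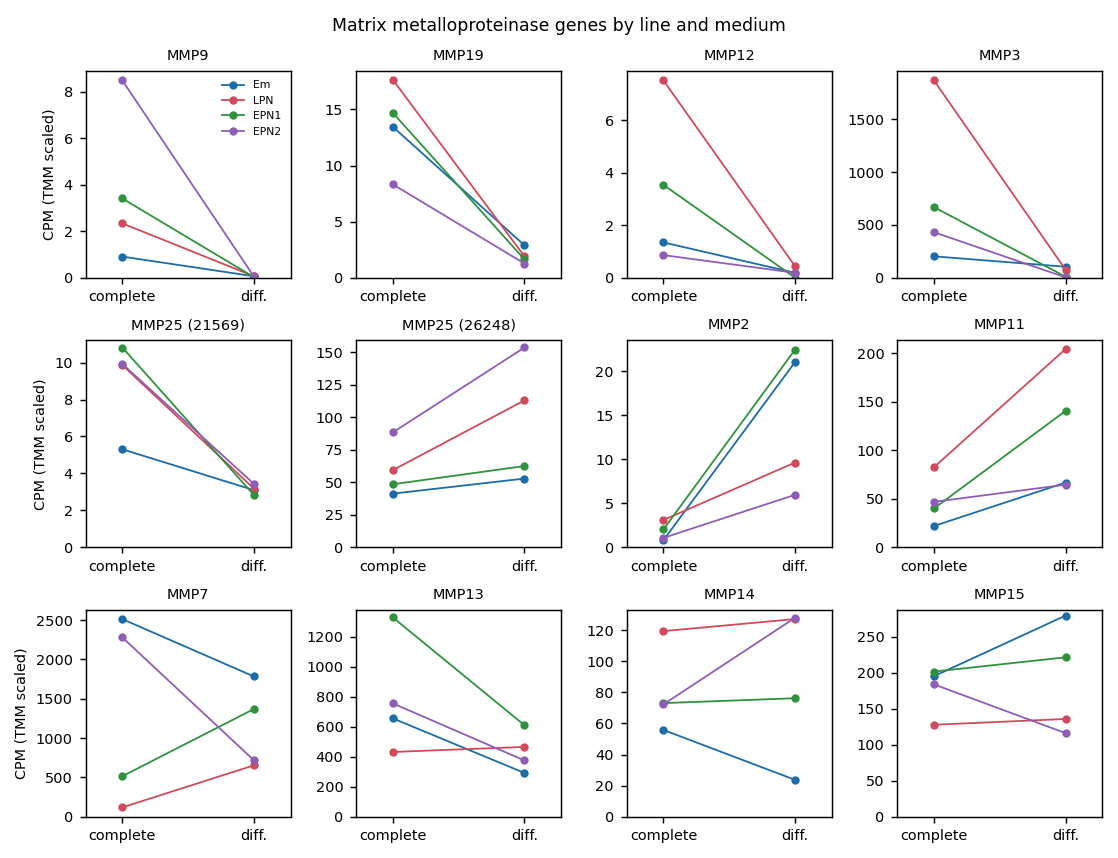
CPM (TMM scaled, linear axes from 0) of 12 MMP genes in complete and differentiation medium, 1 line of points per organoid line. MMP9, MMP19, MMP12, MMP3 and the first MMP25 gene are lower and MMP2 and MMP11 higher in differentiation medium in every line, and the lines of MMP7 cross.

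None of the 4 TIMP genes was called by edgeR, with or without line as the blocking term, and 0 had an unadjusted p under 0.05 without it. DESeq2 called 0 without the line and 2 with it, beside 34.9% of all genes, namely TIMP1 and TIMP3, both lower. TIMP1, an inhibitor of most soluble MMP, was at 84.1, 66.4, 61.8 and 84.1 CPM in complete medium and 75.9, 39.2, 38.0 and 23.7 CPM in differentiation medium. It was lower in 4 of 4 lines, by little in Em, and libraries overlapped (fitted log2 fold change -0.75 ± 0.33 (SE), edgeR adjusted p = 0.189). TIMP2, which also takes part in the activation of MMP2 by MMP14, was at 35.5, 49.5, 64.0 and 93.4 CPM in complete medium and 154, 59.1, 81.7 and 96.2 CPM in differentiation medium, higher in all lines and mostly in Em (fitted log2 fold change 0.69 ± 0.37 (SE), edgeR adjusted p = 0.260).

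TIMP3, the inhibitor that stays bound to the matrix, was at 243, 232, 233 and 30.1 CPM in complete medium and 153, 45.9, 84.7 and 34.6 CPM in differentiation medium. EPN2 stood apart from the other complete libraries, which lay between 232 and 243 CPM, and was the only line of the 4 that was not lower in differentiation medium (fitted log2 fold change -1.22 ± 0.68 (SE), edgeR adjusted p = 0.286). TIMP4 was at 15.1, 38.9, 38.7 and 34.8 CPM in complete medium and 27.2, 12.1, 19.3 and 7.84 CPM in differentiation medium, lower in every line but Em (fitted log2 fold change -0.94 ± 0.44 (SE), edgeR adjusted p = 0.208). Together TIMP genes held 0.0233% to 0.0391% of all counts in complete and 0.0152% to 0.0415% in differentiation medium, with overlapping libraries.

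Of 19 ADAM genes 10 were tested, with 1 higher and 1 lower, and 2 higher and 1 lower with line as the blocking term. ADAM8, a sheddase known from leukocytes and from pancreatic ductal cancer, fell in 4 of 4 lines. It was at 15.5, 63.4, 59.0 and 33.2 CPM in complete medium and 6.16, 9.16, 8.66 and 4.48 CPM in differentiation medium. The libraries did not overlap, and in both media LPN and EPN1 were the highest (fitted log2 fold change -2.59 ± 0.46 (SE), edgeR adjusted p = 0.0233). It was not called without complete LPN or EPN1 or differentiation Em, LPN or EPN1 (adjusted p = 0.0528 to 0.0749).

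ADAM28, a membrane-bound and secreted ADAM, rose in 4 of 4 lines. Its level was 79.5, 167, 101 and 63.7 CPM in complete medium and 215, 355, 414 and 187 CPM in differentiation medium, with no overlap, and means were 103 ± 45.2 CPM (SD, n = 4) in complete and 293 ± 109 CPM in differentiation medium. The test was just past the threshold (fitted log2 fold change 1.51 ± 0.37 (SE), edgeR adjusted p = 0.0499). The call was lost without complete Em, LPN, EPN1 or EPN2 or differentiation Em, LPN or EPN1 (adjusted p = 0.0608 to 0.128), with no filter on low counts and when the extended gene models were left out, and passed in 7 of 18 alternatives.

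ADAM10, the sheddase that cuts NOTCH and CDH1, was at 267, 155, 161 and 373 CPM in complete medium and 644, 379, 645 and 366 CPM in differentiation medium. In Em, LPN and EPN1 it was higher in differentiation medium, and in EPN2 it differed little (fitted log2 fold change 1.09 ± 0.35 (SE), edgeR adjusted p = 0.0954). DESeq2 called ADAM10 higher without the line (adjusted p = 0.0291) and with it (adjusted p = 0.00417, 0.00417 to 0.210 over 18 alternatives). ADAM19 had 0, 14, 0 and 17 counts in complete medium and 1, 596, 74 and 677 in differentiation medium. Nearly all of its counts came from the differentiation libraries of LPN, EPN1 and EPN2 (fitted log2 fold change 5.35 ± 1.89 (SE), edgeR adjusted p = 0.121), and it passed with line as the blocking term (5.51 ± 0.52 (SE), adjusted p = 0.00860, 1.46e-18 to 0.230 over 18 alternatives).

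ADAM9 was at 276, 129, 200.0 and 226 CPM in complete medium and 276, 205, 352 and 146 CPM in differentiation medium and was not called (fitted log2 fold change 0.24 ± 0.31 (SE), edgeR adjusted p = 0.662). ADAM17, the sheddase of TNF and of EGF receptor ligands, is named after its values were seen and was at 85.2, 102, 112 and 103 CPM in complete medium and 71.6, 95.4, 77.1 and 103 CPM in differentiation medium. The difference did not pass (fitted log2 fold change -0.21 ± 0.15 (SE), edgeR adjusted p = 0.390). The other tested genes ADAM11, ADAM15, ADAM23 and ADAM33 were not called, and 9 ADAM genes were not tested, of which 4 never exceeded 3 counts.

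No ADAMTS gene was called by edgeR among 12 tested of 19, and 1 was higher and 1 lower with line as the blocking term, or 16.7% beside 19.9% of all genes. At an unadjusted p under 0.05 there were 3, or 25.0% beside 27.3%. DESeq2 called 3 of the 12 without the line, beside 17.9% of all genes, and 6 with it, beside 34.9%. ADAMTS7, a protease of cartilage matrix proteins, was at 8.64, 4.09, 2.86 and 10.3 CPM in complete medium and 36.1, 29.8, 26.9 and 9.83 CPM in differentiation medium. The differentiation libraries of Em, LPN and EPN1 lay above all complete libraries, whereas EPN2 was slightly lower than in complete medium (fitted log2 fold change 1.98 ± 0.52 (SE), edgeR adjusted p = 0.0607). DESeq2 called ADAMTS7 higher without the line (adjusted p = 0.00266) and with it (adjusted p = 0.000769, 0.000769 to 0.218 over 18 alternatives). ADAMTS15 was at 16.1, 23.4, 11.9 and 13.0 CPM in complete medium and 26.0, 26.0, 33.0 and 7.31 CPM in differentiation medium (fitted log2 fold change 0.52 ± 0.44 (SE), edgeR adjusted p = 0.475).

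ADAMTS4, an aggrecanase, was at 1.13, 3.46, 0.625 and 2.03 CPM in complete medium and 0.227, 0.438, 0.452 and 0.0233 CPM in differentiation medium, with no overlap of libraries (fitted log2 fold change -2.65 ± 0.84 (SE), edgeR adjusted p = 0.0936). DESeq2 called ADAMTS4 lower without the line (adjusted p = 0.00762) and with it (adjusted p = 0.00598, 0.00598 to 0.253 over 18 alternatives). Its highest differentiation library by CPM, EPN1, had 20 counts. ADAMTS13, the protease of von Willebrand factor, was at 4.57, 7.87, 12.3 and 1.97 CPM in complete medium and 17.1, 21.1, 58.6 and 2.31 CPM in differentiation medium, higher in 4 of 4 lines, with EPN1 highest and EPN2 lowest in both media. It passed with line as the blocking term (1.49 ± 0.35 (SE), adjusted p = 0.0407, 0.000353 to 0.495 over 18 alternatives) and not without it (fitted log2 fold change 1.89 ± 0.89 (SE), edgeR adjusted p = 0.213).

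ADAMTS12 was at 1.65, 1.88, 0.216 and 0.158 CPM in complete medium and 0.577, 0.250, 0.113 and 0.0233 CPM in differentiation medium, lower in 4 of 4 lines (fitted log2 fold change -1.99 ± 1.07 (SE), edgeR adjusted p = 0.263). With line as the blocking term it passed (-1.95 ± 0.47 (SE), adjusted p = 0.0417, 0.00842 to 0.484 over 16 alternatives). ADAMTS5, the second aggrecanase, did not pass the count filter of edgeR, at 1, 0, 1 and 2 counts in complete medium and 36, 4, 20 and 52 in differentiation medium. DESeq2 called it higher without the line (log2 fold change 4.79 ± 1.11 (SE), adjusted p = 0.000386) and with it (adjusted p = 1.45e-05). It was called in 4 of the 9 alternatives that tested it, with an adjusted p of up to 0.104, and edgeR without the filter gave 0.0541. Summed over libraries and corrected for depth, differentiation exceeded complete medium 26.4 times, with a 95% counting interval of 10.03 to 98.6. ADAMTS9, a versican protease, had 9, 8, 12 and 4 counts in complete medium and 256, 91, 754 and 0 in differentiation medium, so that it was high in 3 differentiation libraries and at 0 in EPN2 (fitted log2 fold change 4.96 ± 1.56 (SE), edgeR adjusted p = 0.0923). DESeq2 called ADAMTS9 higher without the line (adjusted p = 0.00157, 0.00157 to 0.221 over 17 alternatives) and with it (adjusted p = 0.00754). ADAMTS5 and ADAMTS9 are named after their values were seen.

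The plasminogen activation genes were all tested, and none was called by edgeR without the line. PLAU and PLAUR were lower with line as the blocking term, beside 19.9% of all genes called there. PLAU alone had an unadjusted p under 0.05 and was called by DESeq2 without the line, and DESeq2 called all 3 with it, beside 34.9% of all genes. PLAU was at 161, 398, 387 and 317 CPM in complete medium and 57.5, 166, 77.3 and 141 CPM in differentiation medium. Every line had less in differentiation medium, and the libraries overlapped only in that complete Em lay below differentiation LPN. The test without the line gave a fitted log2 fold change -1.52 ± 0.41 (SE), edgeR adjusted p = 0.0638, and with it -1.56 ± 0.22 (SE), adjusted p = 0.0154 (2.47e-08 to 0.157 over 18 alternatives). PLAUR was at 50.7, 27.8, 37.2 and 23.7 CPM in complete medium and 28.7, 16.7, 21.7 and 6.61 CPM in differentiation medium, and Em was highest and EPN2 lowest in both media. It too was lower in 4 of 4 lines (fitted log2 fold change -0.92 ± 0.43 (SE), edgeR adjusted p = 0.214), and passed with line as the blocking term (-1.04 ± 0.22 (SE), adjusted p = 0.0324, 0.000502 to 0.406 over 18 alternatives).

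PLAT went the other way in 4 of 4 lines. It was at 131, 61.0, 21.9 and 18.5 CPM in complete medium and 165, 228, 273 and 29.9 CPM in differentiation medium, a large step in LPN and EPN1 and a small one in Em and EPN2. It passed in neither fit (fitted log2 fold change 1.59 ± 0.80 (SE), edgeR adjusted p = 0.239; with the line 1.60 ± 0.59 (SE), adjusted p = 0.107; 0.00995 to 0.419 over 18 alternatives). PLG, which encodes plasminogen, the substrate of both activators, was at 0 counts in all 8 libraries, which allows up to 0.0731 CPM.

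SERPINB2, an inhibitor of both activators, was at 46.5, 95.3, 14.7 and 108 CPM in complete medium and 15.3, 73.3, 34.5 and 241 CPM in differentiation medium, with EPN2 highest in both media (fitted log2 fold change 0.46 ± 0.88 (SE), edgeR adjusted p = 0.768). SERPINE2, protease nexin-1, an inhibitor of thrombin and urokinase, was at 3.98, 55.2, 32.8 and 28.3 CPM in complete medium and 1.44, 3.59, 2.69 and 11.8 CPM in differentiation medium. It was lower in 4 of 4 lines and lowest in Em in both media (fitted log2 fold change -2.62 ± 0.88 (SE), edgeR adjusted p = 0.106). With line as the blocking term it passed (-2.58 ± 0.58 (SE), adjusted p = 0.0368, 1.83e-05 to 0.227 over 18 alternatives).

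ST14 rose between media, and neither of its inhibitors was called. ST14 was at 393, 335, 349 and 457 CPM in complete medium and 586, 546, 638 and 594 CPM in differentiation medium. The highest complete library, EPN2, lay below the lowest differentiation library, LPN, and means were 384 ± 54.9 CPM (SD, n = 4) in complete and 591 ± 38.0 CPM in differentiation medium. The rise was small and the replicates close (fitted log2 fold change 0.62 ± 0.14 (SE), edgeR adjusted p = 0.0400). It was not called without complete Em, LPN or EPN1 or differentiation Em, LPN, EPN1 or EPN2 (adjusted p = 0.0575 to 0.117), nor with no filter on low counts, and passed in 7 of 18 alternatives.

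SPINT1 was at 554, 488, 532 and 438 CPM in complete medium and 583, 457, 506 and 476 CPM in differentiation medium. Libraries of the same line were close in both media (fitted log2 fold change 0.01 ± 0.14 (SE), edgeR adjusted p = 0.976), and 87.8% of its variance on the log2 scale lay between lines. SPINT2 was at 969, 846, 1131 and 1037 CPM in complete medium and 1200.2, 672, 1024 and 669 CPM in differentiation medium, lower in LPN and EPN2 in particular (fitted log2 fold change -0.16 ± 0.23 (SE), edgeR adjusted p = 0.682). The difference between the change of ST14 and that of its inhibitors was not tested.

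**Figure D3:**
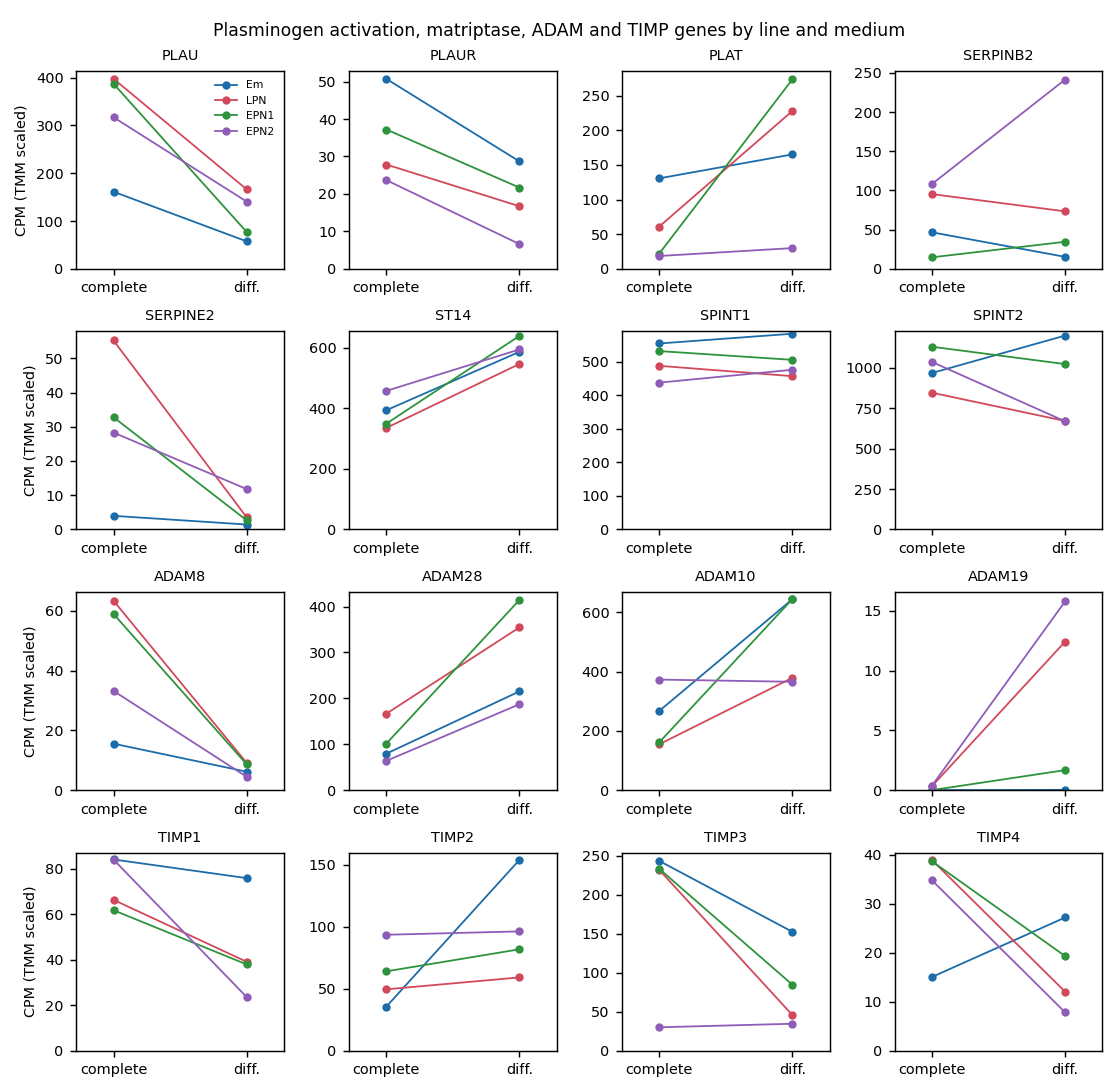
CPM (TMM scaled, linear axes from 0) in complete and differentiation (diff.) medium of 16 genes of plasminogen activation, matriptase, ADAM and TIMP, 1 line of points per organoid line. PLAU, PLAUR, SERPINE2 and ADAM8 are lower and PLAT, ST14, ADAM28 and TIMP2 higher in differentiation medium in every line, and EPN2 is highest in both media for SERPINB2.

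Of 29 serpin genes 16 were tested, with 0 higher and 1 lower in edgeR, or 6.25% beside 6.97% of all genes. With line as the blocking term 3 were higher and 1 lower, or 25.0% beside 19.9%. At an unadjusted p under 0.05 there were 0 higher and 4 lower, or 25.0% beside 27.3%. DESeq2 called 1 of the 16 higher and 2 lower without the line, beside 17.9% of all genes, and 5 higher and 6 lower with it, beside 34.9%. SERPINA1, alpha-1-antitrypsin, the inhibitor of neutrophil elastase, was at 22.8, 11.6, 24.3 and 0.542 CPM in complete medium and 388, 35.4, 298 and 0.677 CPM in differentiation medium. It was high in differentiation Em and EPN1 and below 1 CPM in both EPN2 libraries. The test without the line did not pass (fitted log2 fold change 3.61 ± 1.62 (SE), edgeR adjusted p = 0.195), and that with the line did (2.66 ± 0.69 (SE), adjusted p = 0.0492, 0.000270 to 0.335 over 18 alternatives). A gene without a symbol in the table (ENSSSCG00000038515), named SERPINA1 in the separate table, went from a mean of 3.90 to 44.1 CPM. The gene given as SERPINA1 above has no name in that separate table. Their sequences were not compared, and reads could be split between the 2 genes. SERPINA3-2 was at or under 0.837 CPM in every library and was not called (fitted log2 fold change 1.31 ± 1.26 (SE), edgeR adjusted p = 0.532). SERPINA4, SERPINA5 and SERPINA7 were at 0 counts in all 8 libraries.

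Serpins of the clades C, D, F, G and I were low or were not called without the line. SERPINF2, the plasmin inhibitor, was at 22.4, 1.75, 6.97 and 0.836 CPM in complete medium and 19.2, 8.97, 17.5 and 0.584 CPM in differentiation medium, with Em highest and EPN2 lowest in both media (fitted log2 fold change 0.53 ± 1.16 (SE), edgeR adjusted p = 0.800). SERPING1, the inhibitor of complement C1, was at 4.18, 2.73, 0.913 and 2.62 CPM in complete medium and 5.57, 2.38, 5.59 and 0.607 CPM in differentiation medium (fitted log2 fold change 0.44 ± 0.70 (SE), edgeR adjusted p = 0.721). SERPINC1 (antithrombin), SERPIND1 and SERPINI2 did not exceed 0.249 CPM, and SERPINF1 did not exceed 0.844 CPM, in any library, and these genes were not tested. SERPINI1, neuroserpin, an inhibitor of PLAT, was at 22.5, 4.90, 3.03 and 17.8 CPM in complete medium and 67.3, 9.83, 16.9 and 23.7 CPM in differentiation medium. It was higher in 4 of 4 lines with Em highest in both media (fitted log2 fold change 1.29 ± 0.79 (SE), edgeR adjusted p = 0.325), and just passed with line as the blocking term (1.36 ± 0.35 (SE), adjusted p = 0.0496, 0.00117 to 0.692 over 18 alternatives).

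The clade B serpins, which mostly stay inside the cell and guard it against its own or leukocyte proteases, were mostly spread by line. Of 11 genes 9 were tested, with 0 higher and 1 lower in edgeR, or 11.1% beside 6.97% of all genes. At an unadjusted p under 0.05 there were 0 higher and 3 lower, or 33.3% beside 27.3%. With line as the blocking term edgeR called 1 higher and 0 lower, or 11.1% beside 19.9%. DESeq2 called 1 of 8 without the line, beside 17.9% of all genes, and 9 of 11 with it, beside 34.9%. Among the 9 tested genes, DESeq2 with the line called 3 higher and 5 lower. Over the 9, a median of 79.9% of the variance of log2 CPM lay between lines and 8.42% between media, beside 49.3% and 24.4% over all genes tested. EPN2 was the highest line in both media for 5 of the 9, beside 18.0% of all genes tested, and Em the lowest in both for 4 of the 9, beside 15.5%. Both libraries of a line come from 1 culture source, and genes of a cluster are neighbours, so these counts are a description.

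A cluster on chromosome 1, at 157841487 to 158195896 in the same annotation, holds SERPINB10, SERPINB2, SERPINB7, SERPINB11, SERPINB13, SERPINB12 and SERPINB5. SERPINB5 (maspin), a gene of epithelial and myoepithelial cells, was at 39.5, 153, 72.4 and 243 CPM in complete medium and 17.3, 105, 50.8 and 203 CPM in differentiation medium. The order of the lines was the same in both media, from Em over EPN1 and LPN to EPN2, and each line was lower in differentiation medium (fitted log2 fold change -0.43 ± 0.78 (SE), edgeR adjusted p = 0.751). SERPINB10 was at 15.9, 237, 78.7 and 205 CPM in complete medium and 3.57, 109, 38.8 and 172 CPM in differentiation medium, with Em far below the other lines (fitted log2 fold change -0.74 ± 1.08 (SE), edgeR adjusted p = 0.692). It was lower in 4 of 4 lines. With the line it did not pass in edgeR (adjusted p = 0.0546) and was called by DESeq2 (adjusted p = 0.00407, 0.00407 to 0.900 over 18 alternatives).

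SERPINB11 was at 0.173, 1.46, 0.841 and 41.2 CPM in complete medium and 0.660, 50.2, 13.6 and 204 CPM in differentiation medium. It was higher in differentiation medium in 4 of 4 lines (fitted log2 fold change 2.62 ± 1.89 (SE), edgeR adjusted p = 0.402) and passed with line as the blocking term (3.50 ± 0.60 (SE), adjusted p = 0.0209, 1.49e-08 to 0.772 over 18 alternatives). SERPINB7, SERPINB12 and SERPINB13 are named after their values were seen. SERPINB7 was at 0.0866, 0.609, 0.240 and 47.5 CPM in complete medium and 0.0825, 8.55, 3.05 and 96.9 CPM in differentiation medium (fitted log2 fold change 1.16 ± 2.13 (SE), edgeR adjusted p = 0.757). SERPINB12 and SERPINB13 did not pass the count filter of edgeR, and DESeq2 with the line called SERPINB12 (adjusted p = 0.0435, against 0.857 in edgeR without the filter). Only EPN2 exceeded 0.181 CPM, with 3.25 and 5.02 CPM of SERPINB12 and 2.03 and 4.53 CPM of SERPINB13 in complete and differentiation medium.

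KRT5, a keratin of basal epithelial cells, was at 4.50, 4357, 306 and 7649 CPM in complete medium and 79.4, 4808, 1429.8 and 11099.5 CPM in differentiation medium, with EPN2 highest and Em lowest in both media. Of 8 basal markers 6 were in the table and all were tested. Em was lowest in both media for 5 of the 6, the exception being COL17A1, whereas EPN2 was highest in both for KRT5 and S100A2 and LPN for KRT15 and ITGB4. ITGB4 and COL17A1 were lower in differentiation medium in both fits, none was higher, and the summed level was 3090 to 15455 CPM in complete and 2377 to 16176 CPM in differentiation medium, lowest in Em in both. None was at or under 3 counts in every library, and the part of basal cells in the values of the SERPINB genes was not tested.

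SERPINB6, an inhibitor of cathepsin G and of trypsin-like proteases, was the 1 serpin called between media. It was at 70.8, 91.0, 88.0 and 174 CPM in complete medium and 58.2, 41.2, 38.4 and 35.2 CPM in differentiation medium. EPN2 was highest in complete and lowest in differentiation medium, and the libraries did not overlap (fitted log2 fold change -1.29 ± 0.30 (SE), edgeR adjusted p = 0.0442). The call was lost with line as the blocking term (-1.23 ± 0.33 (SE), adjusted p = 0.0528, 0.00279 to 0.167 over 18 alternatives), with no filter on low counts and without complete Em, LPN or EPN1 or differentiation Em, LPN, EPN1 or EPN2 (adjusted p = 0.0539 to 0.126), and passed in 6 of 18 alternatives. SERPINB1 and SERPINB9, both on chromosome 7 and named after their values were seen, were lower in 3 of 4 lines. Neither passed in edgeR, with or without the line, and DESeq2 with the line called both (adjusted p = 0.0160, 0.0160 to 0.261 over 18 alternatives, and adjusted p = 0.0120, 0.0120 to 0.392 over 18 alternatives).

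**Figure D4:**
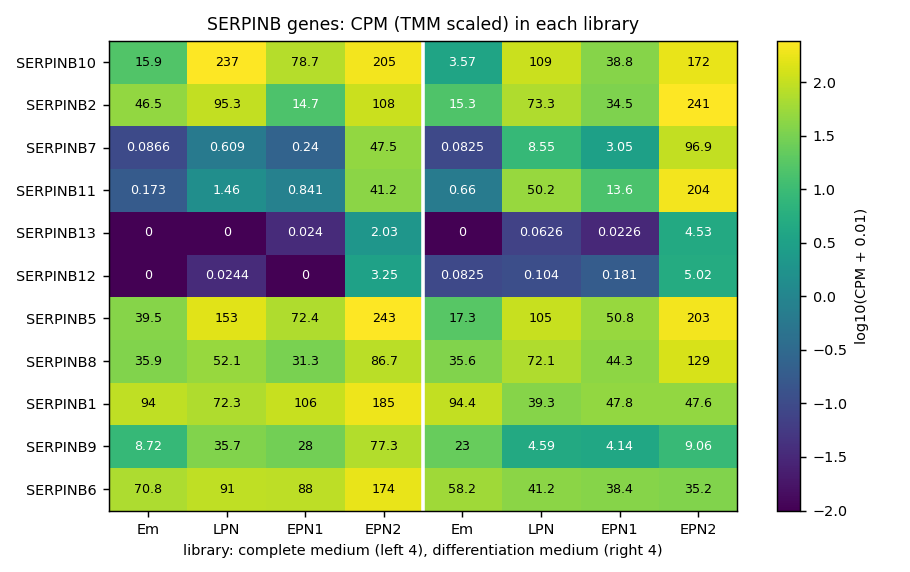
CPM (TMM scaled) of the 11 SERPINB genes in each library, written in the cells and coloured by log10(CPM + 0.01), with complete medium on the left and differentiation medium on the right of the white line. The EPN2 columns are the highest of their medium for SERPINB2, SERPINB7, SERPINB11, SERPINB12, SERPINB13, SERPINB5 and SERPINB8.

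Over all 63 tested genes, the line held a larger share of the variance of log2 CPM than the medium for 40, or 63.5% beside 64.8% of all genes tested. The families differed in this description: the median share between media was 46.5% for the 15 MMP and 35.3% for the 4 TIMP genes, 27.1% for ADAM, 22.2% for ADAMTS and 8.42% for SERPINB. MMP19 had 92.0% and MMP9 90.1% of its variance between media. At the other end, ADAM23 had 95.8% and SERPINB5 91.3% between lines. ADAM23 was at 0 counts in both Em libraries and at no more than 20 counts in any other.

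**Figure D5:**
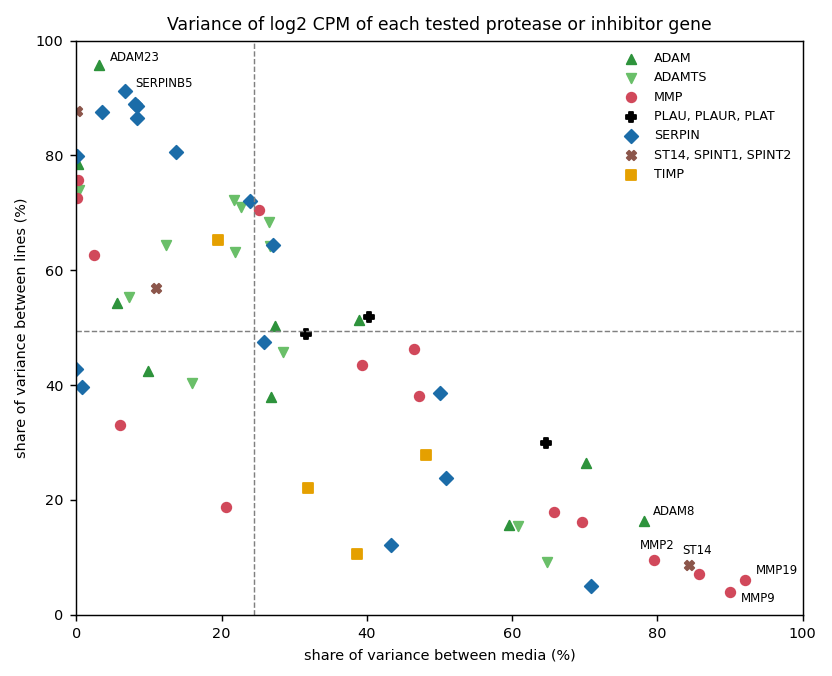
Share of the variance of log2 CPM between media (horizontal) and between lines (vertical), both in percent, for each of the 63 tested genes, marked by family. Dashed lines are the medians over all genes tested, 24.4% and 49.3%. MMP9, MMP19, MMP2, ADAM8 and ST14 lie at the lower right, and several serpin genes, SERPINB5 among them, at the upper left.

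Other genes of the same systems came from a list of 95 symbols of cathepsins, kallikreins, transmembrane serine proteases, other inhibitors and uptake receptors, of which 80 were in the table as 81 genes and 67 were tested. None was higher and 2 were lower in edgeR, beside 6.97% of all genes, and 11 were higher and 6 lower with line as the blocking term, beside 19.9%. At an unadjusted p under 0.05 there were 7 higher and 5 lower, beside 27.3% of all genes. DESeq2 called 5 of the 67 higher and 4 lower without the line, beside 17.9% of all genes. CTSZ, a lysosomal and secreted cathepsin, was at 105, 30.5, 77.5 and 48.2 CPM in complete medium and 23.7, 11.9, 14.8 and 17.6 CPM in differentiation medium (fitted log2 fold change -1.94 ± 0.40 (SE), edgeR adjusted p = 0.0328). All complete libraries exceeded all differentiation libraries. CTSZ was not called without complete Em or EPN1 or differentiation LPN, EPN1 or EPN2 (adjusted p = 0.0556 to 0.102).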

How the data were processed

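Poly(A) RNA of 8 PPDO cultures was sequenced paired-end, and the authors ran salmon through nf-core, with their own annotation of the pig genome. The deposited values are estimated counts, called raw in the labels, while the methods name gene length scaled counts; 78.6% of the values above 0 are whole numbers. The submitters' processing notes list the builds Sscrofa11.1 and GRCh38. The table has 56060 rows, of which 25770 are extended gene models with 2.58% of all counts. Rows of a gene were summed and rounded, and 8 reporter rows (0.00142% of counts) were left out, which gave 30282 genes, 5612 of them with no count. Symbols came from the table, and 87 members were found in RefSeq (Sscrofa11.1) for positions.

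Titles of the samples gave the medium of each library and column names the line. Counts were tested with edgeR 4.0.16 in R 4.3.3 (TMM factors 0.935 to 1.06, default expression filter, quasi-likelihood test, medium as the only term), with Benjamini-Hochberg adjustment over 14475 genes and a threshold of 0.05. P-values measure the spread between 4 lines per medium. Alternatives were DESeq2 1.42.0, its size factors in edgeR, the line as a replicate block, no filter, no extended models, and leaving out each library or line. Because each line was grown in both media, the line pairs the libraries: after removal of the medium means, same-line libraries correlated at 0.400 to 0.658 and other pairs at -0.479 to 0.242. The share of variance between lines and media was taken from log2 CPM. The test was first run on simulated counts that held no differences between lines. There it called 14.3% and 24% of genes with a true log2 fold change of -1 and 1. At -2 and 2 it called 100% and 98%. How often it calls such changes in the PPDO libraries, where lines differ, was not tested. Genes not called there included ADAM19 (fitted log2 fold change 5.35 ± 1.89 (SE), edgeR adjusted p = 0.121) and MMP3 (-4.05 ± 1.21 (SE), edgeR adjusted p = 0.0837). A gene not called can thus still differ by a log2 fold change well beyond 1 in either direction.

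The members and lists were chosen with earlier results of these data known. Genes were named when they passed the threshold (at most 30), when they were PLAU, PLAUR, PLAT, SERPINB2, ST14, SPINT1, SPINT2 or a TIMP, when they had 1 of the 2 highest mean CPM of a family, when they passed with the block only (at most 4 a family), or when their libraries did not overlap (at most 2 a family), and from the list of other genes when they passed (at most 5 in each direction). All other genes in the text, marker genes included, were chosen after their values were seen. Some genes that met the rule are not reported here.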

Additional observations from a re-analysis of the deposited data

Results flagged for a closer look

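For 88 combinations of a gene and a medium, the 4 libraries were searched for 1 that stood far from the other 3, and 5 were found. Not every gene was searched. Outside the search were SERPINB12, SERPINB13 and SERPINB7, the last at 47.5 CPM in complete EPN2 against 0.0866 to 0.609 CPM in the other complete libraries. Chance alone singles out about 1 in 20 such groups. TIMP3 was at 30.1 CPM in complete EPN2, against 232 to 243 CPM in the other complete libraries. SERPINB11 was at 41.2 CPM in complete EPN2, against 0.173 to 1.46 CPM in the others. The remaining 3 were low throughout: SERPINA3-2 at 0.563 CPM and SERPINF1 at 0.844 CPM in complete Em, and SERPINI2 at 0.249 CPM in complete EPN2, where the other complete libraries were at 0.

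The gene ENSSSCG00000038515 has no symbol in the count table and was outside the comparisons by family, but it carries the name SERPINA1 in a separate table of gene names. It had a mean of 44.1 CPM in differentiation medium against 3.90 CPM in complete medium, with 4651 and 3201 counts in differentiation Em and EPN1 and 2 in differentiation EPN2. The change did not pass in edgeR without the line (adjusted p = 0.216) or with it (adjusted p = 0.0602). DESeq2 called it with the line (adjusted p = 0.0142) and not without it (adjusted p = 0.0558). Over the edgeR alternatives with a library or line left out the adjusted p ranged from 0.0223 to 0.362.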

How the results depend on the processing

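The number of protease and inhibitor genes called, 8, was the same with DESeq2 size factors and 7 without the extended gene models, and became 5 with no filter on low counts, where more genes enter the adjustment. DESeq2 called 20 of 75 genes without the line and 39 of 72 with it, and edgeR called 20 with the line as a replicate block. Leaving out 1 library gave 0 to 9 calls, ADAMTS5 among them without complete EPN2 or differentiation LPN, and leaving out a line with the block gave 0 to 24. Of the other genes, 2 were called, and 11 and 28 by DESeq2 without and with the line, 17 by edgeR with the block, 0 to 4 without 1 library and 0 to 25 without 1 line.

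The fitted log2 fold change turned its sign for 10 of the genes named, none of them called by edgeR without the line. With the line, SPINK5 passed in edgeR (adjusted p = 0.0338) as did SERPINB5 (adjusted p = 0.0443) once line EPN2 was left out, and DESeq2 called SERPINB5 (adjusted p = 0.0136), SERPINB7 (adjusted p = 0.00252) and SPINK5. With the line as a replicate block the fitted value was 0.43 in edgeR and 0.45 in DESeq2 for MMP7, and -0.054 and -0.033 for MMP14. Over the fits without 1 library or without 1 line it ranged from -0.65 to 1.15 for MMP7, -0.69 to 0.82 for SERPINB2, -1.14 to 0.092 for SERPINB5, -0.57 to 0.89 for SERPING1, -0.066 to 0.080 for SPINT1, -0.35 to 0.47 for MMP14, -0.16 to 0.26 for MMP15, -1.64 to 6.44 for SERPINB7, -0.35 to 3.92 for KLK7 and -0.084 to 3.72 for SPINK5. The cause was not tested.

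Each line was 1 culture per medium, and at this depth a gene with 3 counts or fewer in a library could not be told from one at 0. No scaling moved the median of all genes by more than 0.02 on the log2 scale.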

Other observations

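Among the other protease and inhibitor genes, all 7 tested kallikreins were highest in EPN2 and lowest in Em in both media. Of the 26 tested inhibitors and receptors, EPN2 was highest in both media for 11 and Em lowest in both for 8. Over all genes tested these shares were 18.0% and 15.5%. The genes below are named after their values were seen, and values stand for Em, LPN, EPN1 and EPN2 in that order. KLK10, a secreted serine protease of stratified epithelium, was at 0.195, 13.5, 3.51 and 137 CPM in complete medium and 3.50, 404, 48.9 and 872 CPM in differentiation medium. It passed with line as the blocking term (edgeR, 3.84 ± 0.41 (SE), adjusted p = 0.0109, 2.41e-20 to 0.543 over 18 alternatives) and not without it (fitted log2 fold change 3.11 ± 1.94 (SE), edgeR adjusted p = 0.334). KLK7, which cuts the junctions of cornified cells, was at 8.12, 155, 161 and 1475 CPM in complete medium and 5.01, 905, 151 and 5464 CPM in differentiation medium and passed in neither edgeR fit. SPINK5, the secreted inhibitor of kallikreins, was at 0.216, 35.0, 16.8 and 369 CPM in complete medium and 3.28, 222, 72.6 and 615 CPM in differentiation medium, with 2.19 ± 0.48 (SE), adjusted p = 0.0338 in edgeR with line as the blocking term (1.24e-05 to 0.984 over 18 alternatives). SLPI, an inhibitor of neutrophil elastase, was at 7.62, 91.7, 34.1 and 632 CPM in complete medium and 7.01, 592, 79.7 and 1397 CPM in differentiation medium. It passed in neither edgeR fit and in 1 of 18 alternatives (0.0159 to 0.942 over 18 alternatives).

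Other genes, also named after their values were seen, had 1 direction between media in all 4 lines. PCSK7, a proprotein convertase, was at 64.1, 47.0, 44.1 and 81.3 CPM in complete medium and 102, 98.9, 103 and 95.8 CPM in differentiation medium, with differentiation libraries between 95.8 and 103 CPM (edgeR with line as the blocking term, 0.80 ± 0.19 (SE), adjusted p = 0.0384, 0.00123 to 0.161 over 18 alternatives). HTRA1, a secreted serine protease, was at 224, 351, 310.3 and 171 CPM in complete medium and 584, 631, 637 and 237 CPM in differentiation medium, higher in 4 of 4 lines (0.94 ± 0.17 (SE), adjusted p = 0.0235 in the same fit, 1.33e-05 to 0.246 over 18 alternatives). PRSS22 was at 62.9, 103, 118 and 157 CPM in complete medium and 33.1, 72.2, 54.6 and 76.9 CPM in differentiation medium, lower in 4 of 4 lines (-0.89 ± 0.13 (SE), adjusted p = 0.0159, 1.06e-06 to 0.264 over 18 alternatives). None of these 3 passed in edgeR without the line, and none of the 63 or the 67 tested genes that passed with line as the blocking term did so without line LPN or without line EPN1.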
